A study of Mus musculus with 2 samples.

Results

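The Myc, Max and Mxd network is a family of transcription factors that share a basic helix-loop-helix leucine zipper, and it was examined here as 10 genes: Myc, Mycn, Mycl1, Max, Mxd1, Mxd3, Mxd4, Mxi1, Mnt and Mga. The members were chosen by name, with earlier results of these data known, and all 10 were found among the 22020 gene symbols of the table. Each gene was represented by the transcript with the highest mean of both libraries. A mean of at least 1 RPKM (reads scaled by transcript length and library read total) was reached by 9 of the members and by 11356 genes in all. Mycl1 was the member below it.

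RNA was sequenced from LSK cells of 8-week-old C57BL/6 mice, sorted as lineage-negative cells carrying c-Kit and Sca-1, a fraction that contains blood stem cells and multipotent progenitors. One genotype was p53 KO, lacking the tumour suppressor p53 (Trp53). The other was Utx/p53 DKO, lacking p53 and also Utx (Kdm6a), an X-linked histone demethylase, so p53 was targeted in both groups and no wild-type group was examined. Each genotype had 1 library, of 17088105 reads for p53 KO and 19926294 for DKO. The labels used here give neither the deleting Cre, the deleted exons, the sex, nor the number of mice behind a library.

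No difference below has a replicate check and no test was made. Each value describes 1 library, and intervals, which are exact 95% intervals from read numbers recovered from the RPKM values, leave out every error but that of counting. The targeted gene Kdm6a was at 5.32 RPKM in the p53 KO and 1.26 RPKM in the DKO library, and Trp53 transcripts were present in both, at 19.4 and 12.9 RPKM. The 2 genes of the sort gate differed in direction: Kit was at 64.2 and 16 RPKM and Ly6a (Sca-1) at 255 and 281 RPKM. Cell type markers also differed between the libraries. All 6 granulocyte and monocyte progenitor markers were at least 2-fold higher in the DKO library, with a level summed over the 6 of 4358 RPKM (p53 KO) and 52871 RPKM (DKO). All 5 lymphoid progenitor markers (291 and 10.4 RPKM summed), 5 of 6 stem cell markers (250.2 and 43.8 RPKM) and all 5 measured B cell markers (297 and 58.8 RPKM) were at least 2-fold lower, though only 3 of the stem cell markers were so with the gfold constants described below. Sums are over every gene of a list. They thus include the stem cell marker Slamf1, which was within 2-fold, and the unmeasured B cell marker Pax5. All 4 measured erythroid markers were also at least 2-fold lower. Beside the marker lists, 6.6% of all measured genes were at least 2-fold higher and 13.5% lower. Late neutrophil markers went both ways (4 higher and 1 lower of 7). So did T and NK cell markers (3 higher and 1 lower of 5). With the gfold constants these counts were 5 and 1, and 3 and 0, beside 16.5% higher and 6.27% lower of all genes. With equal RPKM totals, also described below, they were 2 and 1, and 3 and 1, beside 4.39% and 23.9%. In bulk RNA, fewer cells of a type and less RNA per cell cannot be told apart, and the part of these markers in the differences below was not tested.

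Myc proteins bind DNA only as a pair with Max, at E-boxes, and activate genes of ribosome building, metabolism and cell division. The Mxd proteins, Mxi1 and Mnt also pair with Max at E-boxes, but recruit the SIN3 and histone deacetylase corepressor, and Mga joins Max to a Polycomb-type repressor complex. In blood formation, Myc is used by progenitors that divide and leave the stem cell state, whereas Mxd1 and Mxi1 are known from cells that mature and stop dividing.

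The shared DNA site is shown first, because it links the members to each other and to their targets. The promoter table (RefSeq, GRCm38.p6, 250 bases before to 50 after each start site) held 9 of the 10 members; Myc was not in it. The E-box CACGTG, which reads the same on both strands, was present in the promoters of Max, Mnt and Mxd4 and not in the windows of Mycn, Mycl1, Mxd1, Mxd3, Mga or the 3 promoters of Mxi1. It was also in the promoter of Mlx, which encodes a Max-like protein that pairs with Mxd1 and Mxd4. Each window below has 30 bases, read 5′ to 3′ on the gene's strand, with the E-box in capitals.
Max, chr12:76962234-76962263, minus strand, E-box beginning 3 bases before the start site: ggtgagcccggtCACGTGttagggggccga
Mnt, chr11:74830789-74830818, plus strand, 123 bases before: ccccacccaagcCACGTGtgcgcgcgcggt
Mxd4, chr5:34187912-34187941, minus strand, 219 bases before: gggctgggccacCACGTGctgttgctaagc
Mlx, chr11:101087238-101087267, plus strand, 40 bases before: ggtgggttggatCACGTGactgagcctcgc
The hexamer was found in 8.09% of the 27025 genes with a promoter in the table and in 12.1% of the 8912 measured genes matched to it. A match is a description of the sequence and no evidence of binding. As a check of the start sites, bases shortly after each were looked for in the gene's GENCODE transcripts. They were found in 1 transcript of Mnt, 2 of Mxd4 and 5 of Mlx, but in 0 of Max. The distance given for Max therefore rests on its RefSeq start site alone.

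Myc was the most abundant member in the p53 KO library and the member with the largest difference. It was at 108 RPKM (4420 reads) in the p53 KO and 22.7 RPKM (1084 reads) in the DKO library. The level was therefore 4.75-fold lower in the DKO library (interval 4.45 to 5.09), a log2(RPKM + 1) difference of -2.20. Only 1.16% of the measured genes had a lower log2 ratio. The other Myc genes, which encode proteins that can do much of the work of Myc in other tissues, differed less. Mycn, which acts beside Myc in blood stem cells, was at 12.1 RPKM (536 reads) and 8.31 RPKM (430 reads), a ratio of 0.688 (interval 0.605 to 0.783) and a log2 difference of -0.49. Mycl1 (now Mycl) had 16 reads in each library, at 0.268 and 0.230 RPKM, and at this depth its ratio had an interval from 0.401 to 1.83. Because Mycn differed less than Myc, Myc exceeded Mycn 8.93-fold in the p53 KO library (interval 8.17 to 9.79) and 2.73-fold in the DKO library (interval 2.44 to 3.06).

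Max, the common partner of all the other members, was nearly level between the libraries in reads. It was at 73.5 RPKM (2484 reads) and 63 RPKM (2482 reads), a ratio of 0.857 (interval 0.810 to 0.906). Its log2 difference of -0.22 lay close to the median of all measured genes, which was -0.24.

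The repressive partners Mxd1, Mxd3, Mxd4 and Mxi1 all had higher RPKM in the DKO library, and of them Mxi1 passed the 2-fold rule. Throughout, that rule is applied to log2(RPKM + 1), so a gene whose RPKM values differ just over 2-fold can fall short of it. Mxi1 was at 6.25 RPKM (517 reads) in the p53 KO and 17.5 RPKM (1693 reads) in the DKO library, which is 2.81-fold higher (interval 2.54 to 3.10; log2 difference 1.36). Mxd3, which is known from dividing cells, was the most abundant of the 4 in both libraries, at 19.7 RPKM (437 reads) and 28.9 RPKM (747 reads), a ratio of 1.47 (interval 1.30 to 1.65). Mxd4 had a similar ratio, 1.49 (interval 1.26 to 1.77), from 10.8 RPKM (218 reads) and 16.2 RPKM (380 reads). Mxd1, the member known from maturing granulocytes, was at 5.07 RPKM (404 reads) and 6.97 RPKM (647 reads), a ratio of 1.37 (interval 1.21 to 1.56). The log2 differences of Mxd1, Mxd3 and Mxd4 were 0.39, 0.53 and 0.54, above those of 81.9%, 85.8% and 86% of the measured genes. These 4 genes were higher in the same library as the granulocyte and monocyte progenitor markers, whose levels are given above. With 1 library per genotype this holds for any gene higher in the DKO library, and a link was not tested.

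Mnt, the broadly expressed repressor that opposes Myc in most cells, was low and differed little: 3.78 RPKM (296 reads) and 2.89 RPKM (264 reads), a log2 difference of -0.30. Mga was lower in the DKO library, at 15.8 RPKM (3597 reads) and 7.24 RPKM (1919 reads), a ratio of 0.458 (interval 0.433 to 0.484) and a log2 difference of -1.03. Of the 9 measured members, 2 (Myc and Mga) were thus at least 2-fold lower and 1 (Mxi1) at least 2-fold higher, while 13.5% of all measured genes were lower and 6.6% higher by that rule. The call of Mga lay at the threshold and was lost in 4 of 8 alternative settings, with -0.49 under the gfold constants described below. The 8 include summing a gene's transcripts or taking the lowest one, which could hardly move the call because the transcripts share nearly all reads. The log2 ratios of the 9 ran from -2.20 to 1.36, with a median of -0.22, which is the value of Max.

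**Figure D1:**
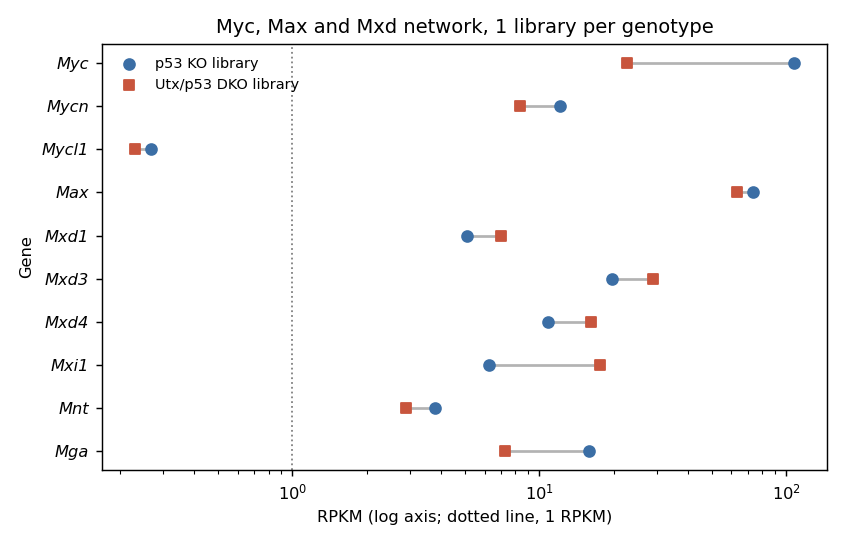
RPKM (log axis) of the 10 network genes in the p53 KO library (circles) and the Utx/p53 DKO library (squares), 1 library each, joined by a grey line. Myc goes from 108 to 22.7 RPKM, Mga from 15.8 to 7.24, and Mxi1 from 6.25 to 17.5.

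The order of the members by level changed with it. In the p53 KO library the order by RPKM was Myc, Max, Mxd3, Mga, Mycn, Mxd4, Mxi1, Mxd1, Mnt and Mycl1, and of these neighbours only Mycn and Mxd4 had a ratio whose counting interval held 1. The DKO library began with Max, Mxd3 and Myc, followed by Mxi1, Mxd4, Mycn, Mga, Mxd1, Mnt and Mycl1. There the intervals of Mxi1 to Mxd4 and of Mga to Mxd1 held 1. As a share of the 10 members' summed RPKM, Myc went from 42.3% (p53 KO) to 13.1% (DKO), and Mxi1 from 2.45% to 10.1%.

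Ratios between members of 1 library do not depend on how the libraries are scaled to each other. Myc stood at 1.47 times Max in the p53 KO library (interval 1.40 to 1.54) and at 0.361 times Max in the DKO library (interval 0.335 to 0.387), so the ratio was 4.07-fold lower. Mxi1 stood at 0.0850 and 0.279 times Max (intervals 0.0772 to 0.0935 and 0.262 to 0.296), a 3.28-fold higher ratio. Relative to Max, Mxd4 was 1.74-fold, Mxd3 1.71-fold and Mxd1 1.60-fold higher in the DKO library, and the intervals of the 2 libraries did not overlap for any of the 3. The sum of the 3 Myc genes went from 120.3 to 31.2 RPKM and that of Mxd1, Mxd3, Mxd4 and Mxi1 from 41.8 to 69.5 RPKM. The Myc genes thus summed to 2.88 times the Mxd genes in the p53 KO library and to 0.449 times in the DKO library. Mnt, at 0.0514 and 0.0459 times Max, had overlapping intervals. These are ratios of transcripts, and protein was not measured.

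**Figure D2:**
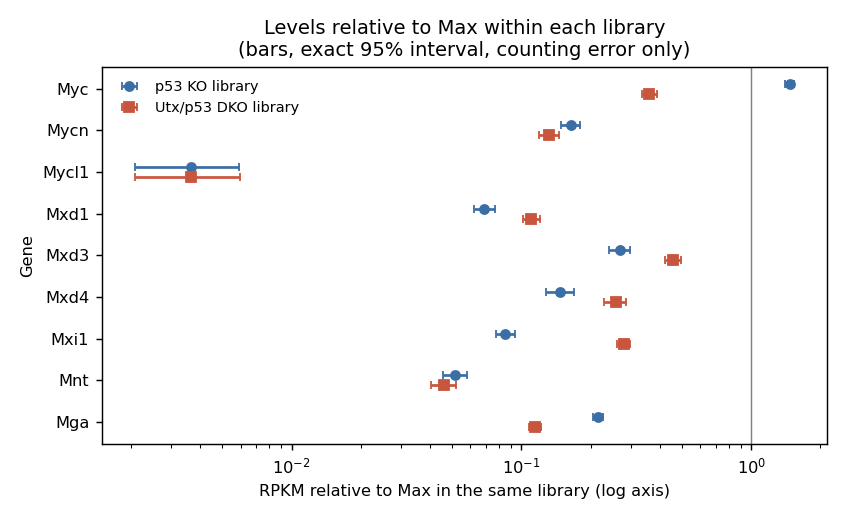
Level of each member relative to Max in the same library (log axis; vertical line, equal to Max), with exact 95% intervals for counting error. Myc is above Max in the p53 KO library (1.47) and below it in the DKO library (0.361), and Mxd1, Mxd3, Mxd4 and Mxi1 are all higher relative to Max in the DKO library.

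The size of each difference between libraries depended on the scaling. The 10 most abundant genes held 20% of all RPKM in the DKO library, against 8.17% with p53 KO alone, and the part of this in the scaling was not tested. Over 5 scalings the median of all genes lay between -0.55 and 0.28. Myc was at least 2-fold lower in all of them, between -2.56 (equal RPKM totals) and -1.62 (the gfold constants), and Mxi1 was at least 2-fold higher, between 1.00 and 1.93. Mxd1, Mxd3 and Mxd4 were positive in all 5 (0.069 to 0.93, 0.17 to 1.11 and 0.19 to 1.11). With the gfold constants Mxd3 and Mxd4 passed the 2-fold rule beside Mxi1, and Myc alone was lower, where 16.5% of all genes were called higher and 6.27% lower. With equal totals Mxi1 was higher and Myc and Mga lower, where the shares of all genes were 4.39% and 23.9%. Max, Mycn and Mnt changed sign with the scaling, at 0.37, 0.058 and 0.17 with the gfold constants. In the authors' deposited table the GFOLD value, a conservative log2 fold change, was -1.53 for Myc, -0.43 for Mga, 0.28 for Max, 0.85 for Mxd1, 0.95 for Mxd3, 0.90 for Mxd4 and 1.92 for Mxi1. That table lists it at 0 for Mycn, Mycl1 and Mnt, and its q-value (E-FDR) was 1 for every gene.

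**Figure D3:**
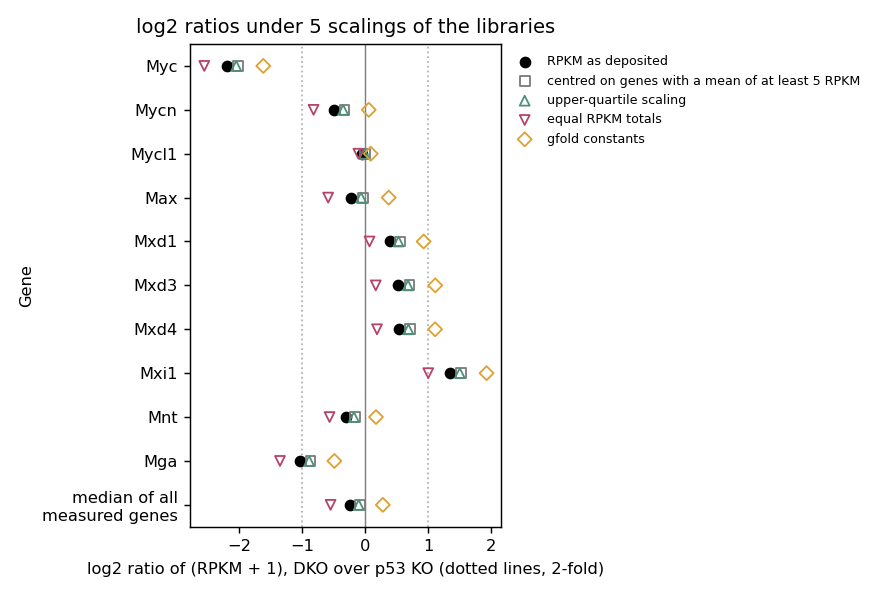
log2 ratio of (RPKM + 1), DKO over p53 KO, of the 10 members and of the median of all measured genes (bottom row) under 5 scalings, with dotted lines at 2-fold. Myc stays left of -1 and Mxi1 right of 1 under each scaling, while Max, Mycn and Mnt lie on both sides of 0.

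Transcripts of 1 gene gave nearly the same values. The 4 transcripts of Myc had the same 4420 and 1084 reads, at lengths of 2396 or 2399 bases. For Mxi1, whose transcripts begin at different first exons, the 3 transcripts had 517, 517 and 519 reads in the p53 KO library and 1676, 1693 and 1683 reads in the DKO one, with log2 differences of 1.33, 1.36 and 1.34. Both transcripts of Max were at -0.22 and both of Mga at -1.03 and -1.05. The near-identical reads of a gene's transcripts show that reads were counted for each transcript they overlap, so isoforms cannot be separated from these values.

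Neighbouring genes were examined because Mga lies on chromosome 2, which had the lowest median of the 20 chromosomes compared (-0.63, against -0.36 to -0.073 for the other 19). The 20 measured genes beside Mga, 10 on each side in the gene order of GRCm38.p6, had a median log2 ratio of -0.76. Of them 7 were at least 2-fold lower and 0 higher, beside 13.5% and 6.6% of all measured genes. Of the 845 other measured genes on chromosome 2, 26.4% were lower by that rule. A lower log2 ratio than that of Mga itself was found in 7 of the 20 neighbours. Mga was thus 0.27 on the log2 scale below the median of its neighbours. Myc, on chromosome 15, stood apart from its neighbours: their median was 0.10 and the lowest of the 20 was at -0.80, against -2.20 for Myc. Around Mxi1, on chromosome 19, the median was -0.21, and 19 of the 20 neighbours had a lower log2 ratio than Mxi1. Transcript length also moves with the ratios: the median log2 ratio was 0.078 for the 2208 genes with the shortest transcripts, which include Mxd3 and Mxd4, and -0.39 for the 2206 with the longest, which include Mga, Mnt, Mxd1 and Mxi1. The part of chromosome and length in the differences was not tested.

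**Figure D4:**
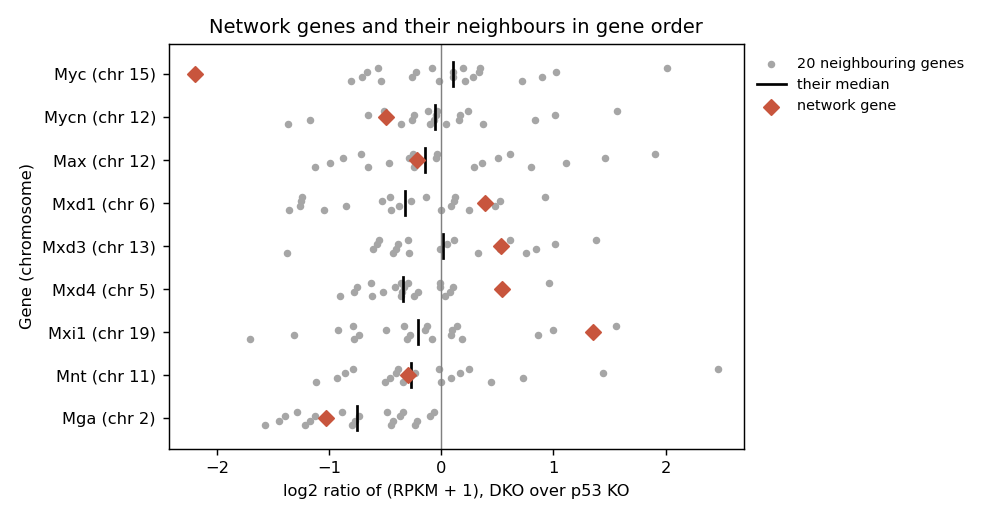
log2 ratio of (RPKM + 1), DKO over p53 KO, of each measured member (diamond) and of the 20 measured genes beside it in gene order (grey points; black bar, their median). Mga lies among neighbours that are all below 0, while Myc is lower than all 20 of its neighbours.

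The Mlx arm of the network, in which Mlx pairs with glucose-sensing partners and with some Mxd proteins, differed within itself. Mlx was at 14.6 RPKM in the p53 KO and 52.5 RPKM in the DKO library, 3.59-fold higher (interval 3.23 to 4.00; log2 difference 1.78). Its partner Mlxip was at 5.54 and 2.76 RPKM, 2.01-fold lower, but at -0.80 on the log2(RPKM + 1) scale, and so missed the rule. Of the 2 measured genes of this arm, 1 was thus higher and 0 lower, beside 6.6% and 13.5% of all measured genes. With the gfold constants the counts were the same, beside 16.5% and 6.27%. With equal totals 1 was higher and 1 lower, beside 4.39% and 23.9%. Mlxipl, the partner known from liver, was below a mean of 1 RPKM, at 0.111 and 1.20 RPKM.

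Of 17 coactivator genes, 1 was at least 2-fold lower and 0 higher (median -0.43), beside 13.5% and 6.6% of all measured genes. With the gfold constants 0 were lower, beside 6.27% of all genes, and with equal totals 4, beside 23.9%. The 1 was Ccnt2, a cyclin of the elongation kinase, at 21.1 and 9.33 RPKM. The others with the largest differences were the chromatin remodelling subunits Smarcb1 (45.8 and 23.6 RPKM) and Actl6a (88.3 and 47.3 RPKM) and the acetyltransferase Kat5 (20.3 and 12.4 RPKM). All 13 genes of the SIN3 and histone deacetylase corepressor, which the Mxd proteins recruit, lay within 2-fold (median -0.055). Of the 13, 1 was higher with the gfold constants (beside 16.5% of all genes) and 1 lower with equal totals (beside 23.9%). Their range ran from -0.66 for the histone-binding subunit Rbbp7 (158 and 100.2 RPKM) to 0.64 for Suds3 (6.77 and 11.1 RPKM). The scaffold Sin3a was at 19.7 and 14.4 RPKM and the deacetylase Hdac2 at 12.3 and 7.76 RPKM.

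Among 10 partners of Mga in its Polycomb-type complex, 2 were at least 2-fold lower and 0 higher (median -0.30), beside the same 13.5% and 6.6% of all genes. With the gfold constants 1 was lower, beside 6.27% of all genes, and with equal totals 3, beside 23.9%. Pcgf6, the subunit that defines this complex, was at 7.45 and 1.75 RPKM, a ratio of 0.234 (interval 0.178 to 0.305). Rnf2, a ubiquitin ligase of the complex, was at 40.1 and 16.2 RPKM (ratio 0.405, interval 0.375 to 0.437). The related ligase gene Ring1 went the other way but stayed within 2-fold, at 1.12 and 1.90 RPKM (ratio 1.69, interval 1.14 to 2.56). Neither Pcgf6 nor Rnf2 lies on chromosome 2. Rybp was at 6.23 and 3.05 RPKM and the heterochromatin protein gene Cbx3 at 533 and 384 RPKM. Rybp, 2.04-fold lower in RPKM, was at -0.84 on the log2(RPKM + 1) scale and so missed the rule.

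Of 14 genes that control the Myc protein, 1 was at least 2-fold lower and 0 higher (median -0.46), a share of 7.14% lower beside 13.5% of all genes. It was Bin1, which encodes a protein that binds and restrains Myc, at 24.2 RPKM and 3.07 RPKM (ratio 0.127, interval 0.105 to 0.153; log2 difference -2.63). With equal totals 3 of the 14 were lower, beside 23.9% of all genes, and with the gfold constants 1, beside 6.27%. The kinase genes Aurka (36.3 and 18.9 RPKM) and Pim1 (43.1 and 25.1 RPKM), whose products stabilise Myc proteins, and the ubiquitin ligase gene Huwe1 (7.76 and 4.40 RPKM) were within 2-fold.

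Genes that Myc is known to activate were mostly slightly lower in the DKO library on the RPKM scale, and few passed the 2-fold rule. Of 47 measured targets, 4 were at least 2-fold lower (8.51%) and 0 higher, beside 13.5% and 6.6% of all measured genes. Nop56 and Wdr43, 2.02-fold and 2.03-fold lower in RPKM, missed the rule on the log2(RPKM + 1) scale. The median log2 ratio of the 47 was -0.47 against -0.24 for all genes, and 32 of the 47 lay below the all-gene median. The 4 were Polr1b, a subunit of RNA polymerase I (11.8 and 2.85 RPKM), the cyclin gene Ccnd2 (130 and 42.5 RPKM), Fbl, the methyltransferase of ribosomal RNA (20 and 9.09 RPKM), and Nop58, a protein of the same particle (132 and 65.5 RPKM). Of the 4, Polr1b lies on chromosome 2. With the gfold constants the counts were 1 lower and 3 higher, beside 6.27% and 16.5% of all genes. With equal totals they were 14 lower and 0 higher, beside 23.9% and 4.39% of all genes. Among the 47 the lowest, Polr1b, was at -1.73 and the highest, Nme2, at 0.64. Tert, the telomerase gene, was below a mean of 1 RPKM, at 0.837 RPKM (49 reads) and 0.0732 RPKM (5 reads), a ratio of 0.0875 (interval 0.0272 to 0.218).

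Of all the listed activated targets, measured or not, 40 had a promoter in the table. The E-box was held by 11 of the 40 (27.5%), beside 12.1% of the 8912 measured genes matched to a promoter, a difference that was not tested. The 4 of the 11 with the lowest log2 ratios are shown in the same way as above, Eif4e with both of its matches.
Wdr43, chr17:71616220-71616249, plus strand: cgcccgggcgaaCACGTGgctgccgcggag
Hspd1, chr1:55088306-55088335, minus strand: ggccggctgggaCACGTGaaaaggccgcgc
Paics, chr5:76951087-76951116, plus strand: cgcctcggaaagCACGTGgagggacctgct
Eif4e, chr3:138527028-138527057, plus strand: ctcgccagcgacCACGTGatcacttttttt
Eif4e, chr3:138527192-138527221, plus strand: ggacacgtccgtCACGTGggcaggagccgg
The matches begin 18 bases into the transcript for Wdr43, and 80, 203, 228 and 64 bases before the start site for the rest in the order printed. Wdr43, of the ribosome-building machinery, was at 50.4 and 24.9 RPKM. Hspd1, the mitochondrial chaperonin, was at 140 and 75.4 RPKM. Paics, a purine synthesis enzyme, was at 242 and 137 RPKM, and the cap-binding factor Eif4e at 83.1 and 51 RPKM. The median log2 ratio was -0.42 for the 11 targets with the E-box and -0.51 for the 28 measured targets without it. Over all measured genes with a promoter in the table it was -0.25 for the 1074 with the E-box and -0.24 for the 7838 without. Only this exact hexamer within the promoter windows was searched. Other E-box forms and sites outside the windows were not, and a link between E-boxes and the ratios was not tested.

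Genes that Myc is known to repress had a higher median than its activated targets. Of 7 measured, 1 was at least 2-fold higher and 0 lower (median 0.21), beside 6.6% and 13.5% of all genes. With the gfold constants 3 were higher, beside 16.5% of all genes, and with equal totals 1, beside 4.39%. All 7 lay above the all-gene median of -0.237, Cdkn1b only just, at -0.231. On the RPKM scale Cdkn1b, Cdkn1a (-0.147) and Ndrg2 (-0.064) were nevertheless lower in the DKO library. The 1 was Cebpa, a myeloid transcription factor that is itself a gene of granulocyte and monocyte progenitors, at 2.35 and 15.1 RPKM (6.43-fold higher, interval 5.25 to 7.95). The cell cycle inhibitor gene Cdkn2c was at 9.21 and 16.4 RPKM, the stress gene Gadd45a at 3.06 and 5.04 RPKM, and Cdkn1b, which encodes p27, at 18.3 and 15.4 RPKM. Cdkn2b and Thbs1 were below a mean of 1 RPKM.

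Other basic helix-loop-helix factors that bind E-boxes went both ways (1 higher and 3 lower of 12 measured, median 0.0050), beside 6.6% higher and 13.5% lower of all measured genes. With the gfold constants 2 were higher and 3 lower, beside 16.5% and 6.27% of all genes. With equal totals the counts were 1 and 4, beside 4.39% and 23.9%. Tcfec, a factor of macrophages, was at 10.3 and 34.8 RPKM. Srebf2, the regulator of sterol synthesis, was at 21.7 and 4.36 RPKM (ratio 0.201, interval 0.179 to 0.224), Tcfap4, which Myc is known to induce, at 11.3 and 3.11 RPKM, and the clock factor Arntl at 12.7 and 3.84 RPKM.

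**Figure D5:**
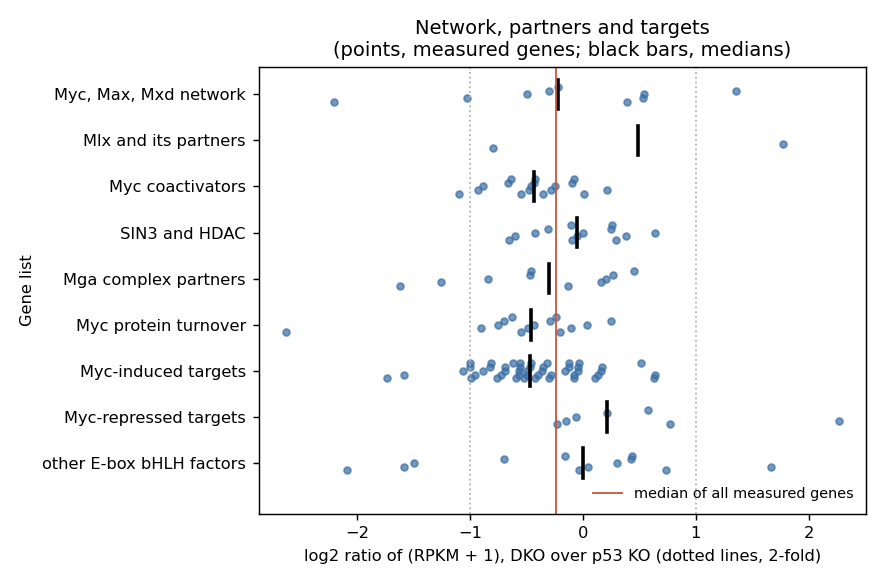
log2 ratio of (RPKM + 1), DKO over p53 KO, of the measured genes of the network and of 8 related lists (points), with each list's median (black bar), the median of all measured genes (red line) and 2-fold (dotted lines). The activated targets have a median of -0.47 and the repressed targets one of 0.21, beside -0.24 for all genes.

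With 2 libraries, likeness to Myc can be judged only by level and ratio. Among the 989 other genes with a mean within 1.5-fold of that of Myc, the 3 with the nearest log2 ratios were Tes (90.7 and 19.3 RPKM, -2.17), Tbc1d10c (103 and 22.7 RPKM, -2.13) and Ube2l6 (112 and 22 RPKM, -2.30).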

How the data were processed

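RNA-seq values of 2 libraries of sorted LSK cells, 1 p53 KO and 1 Utx/p53 DKO, were used. Per the labels' protocols, RNA was reverse transcribed with oligo-dT selection and a SMART kit and amplified. Demultiplexing with bcl2fastq 1.8.4, TopHat2 2.1.0 and build mm9 are named in the submitters' processing notes, and per the file headers gfold 1.1.4 made the table. The authors deposited RPKM values per RefSeq transcript (28344), log2 fold changes, GFOLD values (log2) and a q-value (E-FDR). The columns were matched to the libraries through the order in the header and the read totals. The sources used here do not give the strandedness. Overlapping antisense reads therefore cannot be told apart.

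Genes were compared on log2(RPKM + 1), with a mean of at least 1 RPKM as filter and 2-fold as rule. No test was possible without replicates. Whole reads were recovered by searching for the transcript length at which both RPKM values and the log2 fold change fit, with GENCODE lengths within 10% used to choose among several solutions (542 transcripts). This gave reads for 97.9% of the 24644 transcripts with reads, and the search was tested on simulated data. The simulated transcripts were drawn only from those with 1 solution, so the choice by GENCODE length was not covered. Intervals are Clopper-Pearson.

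The members and lists were chosen with earlier results of these data known. All members were named, with up to 4 genes per list by absolute log2 ratio (markers: by list) and the 3 genes most like Myc. Mlxipl, Ring1, Cdkn1a, Cdkn2b, Ndrg2, Thbs1, Tert, Nme2, Nop56, Slamf1, Pax5 and the genes with an E-box were named after their values were seen. The comparison with neighbouring genes was added then. Genes were placed by accession with the RefSeq table of GRCm38.p6 (97.6% of measured genes). Its coordinates were not mixed with mm9. Analyses used Python 3.11.15, pandas 2.3.3 and scipy 1.17.1.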

Additional observations from a re-analysis of the deposited data

How the results depend on the processing

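No paired analysis was possible because each genotype has 1 library. The count of members at least 2-fold lower went from 2 to 1, Myc alone, with a pseudocount of 5 RPKM, with centring on genes averaging 5 RPKM or more, with upper-quartile scaling, with the gfold constants and with a 3-fold rule. The count of members at least 2-fold higher went from 1 to 3 with the gfold constants and to 0 with the 3-fold rule. The median log2 ratio of the measured members, -0.22, was -0.041 with that centring, -0.065 with upper-quartile scaling, -0.57 with equal RPKM totals, 0.37 with the gfold constants, -0.13 with no filter and 0.086 when members had to average 5 RPKM. The first 4 of these shift all genes together, and the last 2 change which members are counted. Over the 8 alternatives for each member, Myc stayed between -2.56 and -1.62, Mxi1 between 1.00 and 1.93 and Mga between -1.35 and -0.49, and no member called at 2-fold changed sign. Summing transcripts or taking the lowest one moved none of these calls. Both settings are among the 8 alternatives but could hardly move a call, because the transcripts of a gene share nearly all their reads. Depth limits Mycl1, with 16 reads per library. The spread between mice is unknown for every value.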
